A study of Homo sapiens with 75 samples.

Results

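The genes described here are 36 listed targets and partners of ATF4, the transcription factor of the integrated stress response. They were listed by name, with earlier results of these data known, together with the Ensembl identifier that the deposited expression table uses. The table held 35 of the 36 among its 19536 gene rows. ATF4 itself was not analysed here. Of the 35 genes found, 33 passed the filter on low values and were tested among 11745 genes, while ATF3 and STC2 lay below it in every group. The table gives identifiers and no gene names, so each name below is the one that the list pairs with an identifier.

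RNA came from 5 human lines of diffuse large B-cell lymphoma, which arises from mature B cells: DHL4, DHL6, LY7, HBL1 and U2932. Each line was sampled in the vehicle DMSO at 0, 6 and 24 h, and with R406 at 6 and 24 h, with 3 arrays in each group. R406 inhibits SYK, the kinase next to the B-cell receptor, and it also acts on other kinases. The 75 arrays fall into 25 groups. Every line stands for 1 established culture, no other allele or agent is named in the labels, and the sources used here give no dose of R406. From background knowledge, and not from the labels, DHL4, DHL6 and LY7 belong to the germinal centre class of this lymphoma, and HBL1 and U2932 to its activated class. Whether the lines carry their B-cell markers was not analysed here, because no gene name beyond the 36 is paired with an identifier.

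When amino acids run short or misfolded proteins accumulate, kinases such as GCN2 and PERK phosphorylate the translation factor eIF2. General translation then slows while ATF4 protein is made, and ATF4 binds composite C/EBP-ATF elements as a dimer with other leucine zipper proteins. Its targets refill the cell's amino acid supply through synthesis, import and charging of tRNAs, and some of them end the response or promote cell death. Growth signals through mTORC1 also raise ATF4 and several of these genes, and lymphoma cells rely on imported amino acids to divide.

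Because ATF4 binds C/EBP-ATF elements, the core of the element was looked up in the promoters of the listed genes. The core TGATGNAA was searched on both strands of RefSeq promoter windows (GRCh38.p14), each from 250 bases before to 50 bases after a transcript's start. Windows were found for 30 of the 36 genes, 45 windows in all, and 12 of the 30 genes held the core in a window (40%). Among all 27305 genes with windows the share was 4.46%, and by window it was 26.7% of the listed genes' windows and 3.62% of all 35116 windows. The 12 genes were ASNS, CHAC1, ATF3, SLC3A2, SLC7A1, SLC1A5, CEBPG, GARS, MARS, AARS, NARS and IARS. A match describes these letters only, and the element was already known in many of these genes when they were listed. The 5 stretches that lie wholly before the start are shown, with the core in capitals as it reads on the gene's own strand (TTGCATCA is a core on the opposite strand). They lie at chr7:97872429-97872516 on the minus strand (ASNS), chr15:40953222-40953309 on the plus strand (CHAC1), chr1:212565176-212565263 on the plus strand (ATF3), chr19:46784864-46784951 on the minus strand (SLC1A5) and chr16:70289646-70289733 on the minus strand (AARS).
ASNS: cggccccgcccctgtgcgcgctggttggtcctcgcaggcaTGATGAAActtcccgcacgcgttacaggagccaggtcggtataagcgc
CHAC1: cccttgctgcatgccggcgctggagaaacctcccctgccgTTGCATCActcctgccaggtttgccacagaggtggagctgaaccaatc
ATF3: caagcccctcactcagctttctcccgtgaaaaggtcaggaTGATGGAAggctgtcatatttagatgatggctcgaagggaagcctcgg
SLC1A5: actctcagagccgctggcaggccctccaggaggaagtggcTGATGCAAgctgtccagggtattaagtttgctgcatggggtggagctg
AARS: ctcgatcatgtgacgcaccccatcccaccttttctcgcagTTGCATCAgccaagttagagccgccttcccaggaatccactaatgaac

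The first base of the core stood at -68 in ASNS, -209 in CHAC1, -191 in ATF3, -97 in SLC1A5 and -187 in AARS, counted from the start of the transcript. At 24 h of R406, the 11 tested genes with the core had average log2 fold changes between -0.83 and -0.28, with a median of -0.56. The 16 tested genes with a window but no core lay between -0.9996 and 0.54, with a median of -0.39. Both sets span overlapping ranges, and the difference between them was not tested.

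Arrays of a group correlated at 0.991 or more over the genes tested, and the highest correlation between lines was 0.911. The median SD of the 35 genes within a group of 3 arrays was 0.053 on the log2 scale. The largest was 0.48, for SLC7A5 in DHL6 with DMSO at 6 h, where replicate A read 9.85 beside 10.73 and 10.64. The labels do not say whether the replicate letters stand for separate cultures, so the p-values reflect the spread among these arrays alone, and that spread may be technical. Levels are log2 values from RMA, which forces the arrays onto one distribution, and they are not compared between genes.

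Most of these genes were lower with R406 than with DMSO after 24 h, in every line. On average over the 5 lines at 24 h, 29 of the 33 tested genes were lower with R406 than with DMSO and 2 were higher (DDIT3 and SLC38A2). Across all genes tested 39.9% were called lower and 33.7% higher, where called means an adjusted p under 0.05 in limma. The median log2 fold change of the 33 was -0.51, beside -0.0086 for all genes. The largest average falls were those of PSAT1, -0.9996 (SE 0.026), SLC7A11, -0.92 (SE 0.031), SLC7A5, -0.87 (SE 0.045), and SLC3A2, -0.83 (SE 0.024). These are an enzyme of serine synthesis and 3 subunits of amino acid exchangers. In bulk RNA, fewer cells that express a gene and less RNA per cell cannot be told apart.

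By line at 24 h the fall was broad in each. In DHL4, 24 of 33 genes were lower and 3 higher (all genes 38.1% and 31.1%), with a median of -0.67. DHL6 had 29 lower and 2 higher (35.5% and 25.2%), with a median of -0.39. LY7 had the most, 30 lower and 1 higher (32.6% and 26.7%), with a median of -0.72. HBL1 had 25 lower and 4 higher (22.3% and 21.4%), with a median of -0.32, and U2932 had 23 lower and none higher (20.5% and 16.1%), with a median of -0.31.

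**Figure D1:**
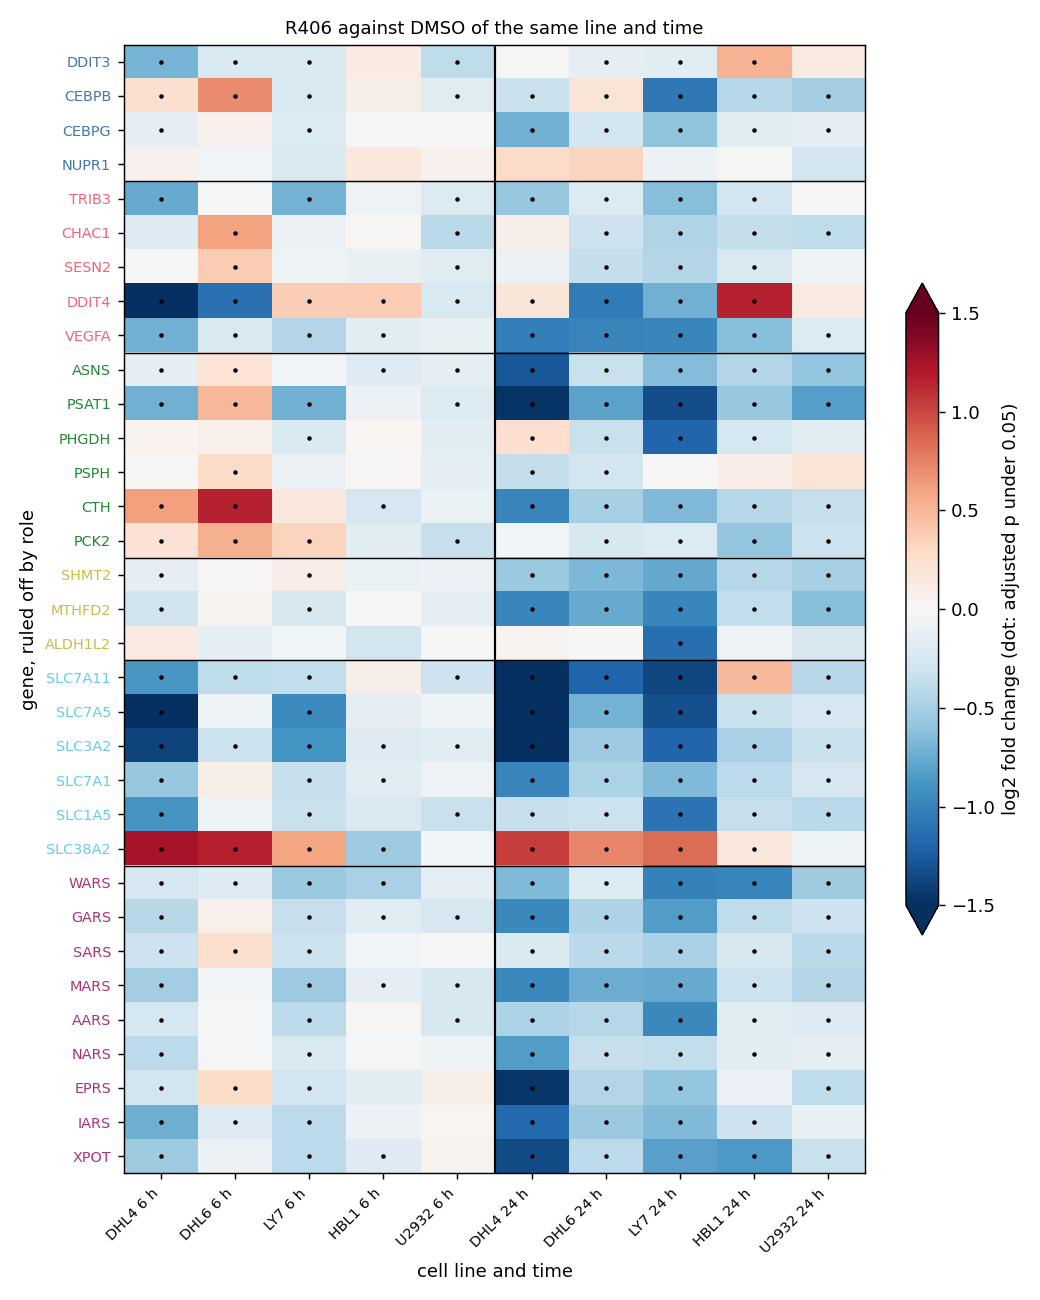
Log2 fold change of R406 against DMSO of the same line and time for the 33 tested genes (rows, ruled off by role) in the 5 lines at 6 h (left of the line) and 24 h (right). Blue is lower with R406, red is higher, dots mark an adjusted p under 0.05, and the colour scale ends at 1.5 in either direction. The 24 h columns are mostly blue in all lines, the 6 h columns are paler and the DHL6 column at 6 h is mixed, and SLC38A2 is the row that is red in DHL4, DHL6 and LY7 at both times.

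Called lower in all 5 lines at 24 h were 18 of the 33 genes, against 7.52% of all genes tested. They were CEBPG, VEGFA, ASNS, PSAT1, CTH, SHMT2, MTHFD2, SLC7A5, SLC3A2, SLC7A1, SLC1A5, WARS, GARS, SARS, MARS, AARS, NARS and XPOT. No gene was called higher in all 5 lines at either time. The count was 12 after cyclic loess normalization, and 14 of the 18 held whichever single array was left out (all but AARS, CEBPG, SLC1A5 and SLC7A5). At 6 h SLC3A2 alone was called lower in all 5 lines (1.36% of all genes), and its call in U2932 was lost without DMSO replicate B (adjusted p = 0.0867).

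After 6 h the response was smaller and split by line. On average 22 of 33 genes were lower and 4 higher at 6 h (29.1% and 32.2% of all genes), with a median of -0.15 beside -0.0075 for all genes. DHL4 had 23 lower and 4 higher (26.8% and 25.5%) and LY7 had 22 lower and 4 higher (22.4% and 25.4%). In DHL6 the direction differed, with 11 genes higher and 7 lower (19.9% and 19.8%) and a median of 0.012. HBL1 had 10 lower and 1 higher (11.2% and 11.1%), and U2932 had 15 lower and none higher (10.6% and 17.9%). In HBL1 the count of 10 became 6 without DMSO replicate C and 17 with array weights.

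Stress transcription factors had the smallest median at 24 h of any role, -0.16 over the 4 tested genes. DDIT3 (ENSG00000175197_at), which encodes the death-promoting factor CHOP, read 8.54, 8.59 and 8.39 in the DHL4 arrays with DMSO at 6 h and 7.83, 7.78 and 7.81 with R406. The groups did not overlap, and the log2 fold change was -0.70 (SE 0.059, adjusted p = 2.12e-15). The 6 h fall of DDIT3 was called in U2932, -0.38, DHL6, -0.23, and LY7, -0.23, too, while HBL1 had 0.12 (SE 0.059, adjusted p = 0.147). At 24 h DDIT3 was higher in HBL1, where DMSO arrays read 7.65, 7.58 and 7.75 and R406 arrays 8.16, 8.19 and 8.19. That difference of 0.52 (SE 0.059, adjusted p = 8.97e-11) left all 3 treated arrays above all 3 controls. With 0 h as the control it was 0.11 and not called (adjusted p = 0.138), as DDIT3 in HBL1 was lower in DMSO at 24 h than at 0 h, -0.42 (SE 0.059, adjusted p = 1.55e-07). In LY7 at 24 h the values were 8.23, 8.17 and 8.23 with DMSO and 8.02, 8.11 and 7.98 with R406, a difference of -0.17 (SE 0.059, adjusted p = 0.0105) whose call was lost without R406 replicate C (adjusted p = 0.0588). On average the DDIT3 difference went from -0.28 at 6 h to 0.071 (SE 0.027, adjusted p = 0.0152) at 24 h. That small rise was lost when array medians were subtracted (adjusted p = 0.217) and was -0.13 (adjusted p = 1.54e-05) with 0 h as the control.

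CEBPB (ENSG00000172216_at) and CEBPG (ENSG00000153879_at) encode leucine zipper proteins that pair with ATF4. CEBPB rose at 6 h in DHL4, 0.24, and more in DHL6, from 9.35, 9.30 and 9.20 with DMSO to 9.99, 9.98 and 9.99 with R406, a difference of 0.70 (SE 0.062, adjusted p = 2.88e-14). It fell in LY7 at 6 h, from 9.80, 9.80 and 9.74 to 9.54, 9.58 and 9.53, a difference of -0.23 (SE 0.062, adjusted p = 0.00131). The LY7 fall deepened at 24 h, when DMSO arrays read 9.94, 9.90 and 9.93 and R406 arrays 8.93, 8.81 and 8.83, a difference of -1.07 (SE 0.062, adjusted p = 4.57e-22). None of these groups overlapped. DHL6 was the line above its control at 24 h too, 9.54, 9.53 and 9.50 against 9.62, 9.82 and 9.70, a difference of 0.19 (SE 0.062, adjusted p = 0.00703). Without R406 replicate B that call did not hold (adjusted p = 0.0781). In DHL4 at 24 h CEBPB was lower, -0.33 (SE 0.062, adjusted p = 5.09e-06), but -0.055 (adjusted p = 0.398) after cyclic loess normalization. CEBPG fell in all 5 lines at 24 h, from -0.13 in U2932 to -0.72 in DHL4. NUPR1 (ENSG00000176046_at), a stress-induced nuclear protein, was called in no line at either time, with differences between -0.28 and 0.33 and group means that reached below the filter level in 4 lines.

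**Figure D2:**
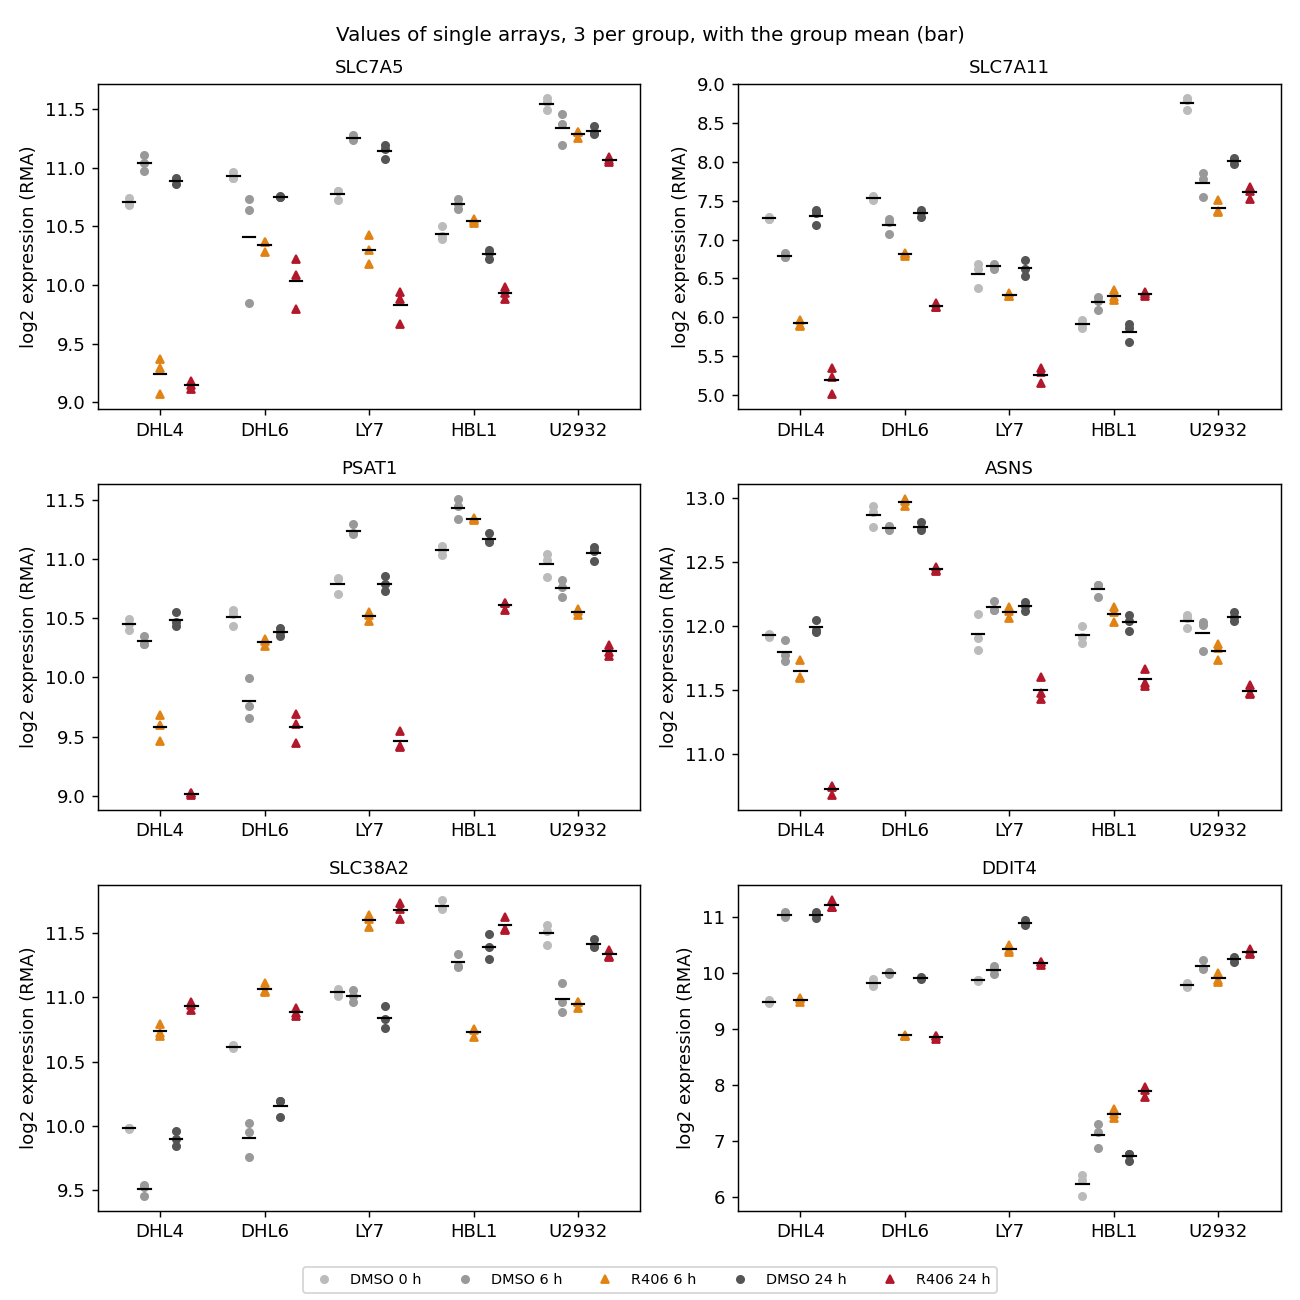
Log2 expression of 6 genes on each of the 15 arrays of every line. Circles are DMSO at 0, 6 and 24 h, triangles R406 at 6 and 24 h, and bars group means (n = 3). SLC7A5, SLC7A11 and PSAT1 in DHL4 show R406 arrays below every DMSO array of that line, SLC38A2 in DHL4 shows them above, and DDIT4 differs in direction between the lines.

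Stress response regulators and secreted factors were lower on average at 24 h in all 5 tested genes, DDIT4 the least. VEGFA (ENSG00000112715_at), the blood vessel growth factor, had DHL4 arrays at 6.66, 6.64 and 6.70 with DMSO and 5.65, 5.68 and 5.60 with R406 at 24 h. The difference of -1.02 (SE 0.052, adjusted p = 3.57e-25) separated the groups without overlap and brought VEGFA below the filter level of 5.89. VEGFA fell in the other lines as well, with log2 fold changes of -0.20 in U2932, -0.64 in HBL1, -0.97 in LY7 and -0.99 in DHL6. TRIB3 (ENSG00000101255_at), a pseudokinase that feeds back on ATF4 and CHOP, was lower at both times in DHL4, -0.76 and -0.57, and in LY7, -0.71 and -0.64.

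DDIT4 (ENSG00000168209_at) encodes REDD1, an inhibitor of mTORC1, and had the widest spread of responses at 6 h. In DHL4 it read 11.00, 11.04 and 11.09 with DMSO and 9.48, 9.55 and 9.53 with R406 at 6 h, a difference of -1.52 (SE 0.064, adjusted p = 4.9e-28). HBL1 arrays at 6 h were higher, 7.17, 6.87 and 7.30 against 7.48, 7.41 and 7.57, a difference of 0.38 (SE 0.064, adjusted p = 6.89e-06). Neither pair of groups overlapped. At 24 h the HBL1 rise had grown, from 6.65, 6.76 and 6.77 to 7.90, 7.79 and 7.96, a difference of 1.16 (SE 0.064, adjusted p = 3.42e-22). DHL6 went the other way at 24 h, from 9.93, 9.92 and 9.88 to 8.88, 8.87 and 8.82, a difference of -1.05 (SE 0.064, adjusted p = 5.86e-21), again without overlap. It was already lower at 6 h, -1.12. LY7 was higher at 6 h, 0.37, and lower at 24 h, -0.72 (adjusted p = 1.19e-14). The DHL4 fall did not last, with 0.18 (adjusted p = 0.0111) at 24 h. That call was lost without DMSO replicate C (adjusted p = 0.062) or R406 replicate A (0.083). U2932 had -0.23 at 6 h and 0.12 (adjusted p = 0.146) at 24 h. The averages were -0.42 (SE 0.029) at 6 h and -0.063 (SE 0.029, adjusted p = 0.0455) at 24 h, and the small average at 24 h turned to 0.077 (adjusted p = 0.0114) after cyclic loess normalization. Its call was lost without any 1 of 16 of the 30 arrays at that time (adjusted p up to 0.0964 without HBL1 R406 replicate B). DDIT4 also climbed in DMSO alone. In DHL4 it stood 1.55 above 0 h after 6 h of DMSO, so that the R406 arrays at 6 h were close to the 0 h values, 9.53, 9.48 and 9.46.

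SESN2 (ENSG00000130766_at), a leucine sensor upstream of mTORC1, and CHAC1 (ENSG00000128965_at), which degrades glutathione, rose in DHL6 at 6 h. SESN2 went from 7.55, 7.58 and 7.58 with DMSO to 8.00, 7.99 and 7.84 with R406, a difference of 0.38 (SE 0.053, adjusted p = 2.52e-08). CHAC1 went from 6.02, 6.08 and 6.17 to 6.84, 6.59 and 6.64, a difference of 0.60 (SE 0.10, adjusted p = 2.65e-06). In both cases all 3 treated arrays were above the controls. With 0 h as the control, SESN2 in DHL6 was lower at 6 h, -0.20 (adjusted p = 0.000892). U2932 was lower at 6 h for both genes, SESN2 from 7.50, 7.34 and 7.25 to 7.22, 7.19 and 7.11, a difference of -0.19 (SE 0.053, adjusted p = 0.00508), a call lost without DMSO replicate A (adjusted p = 0.134). For CHAC1 the U2932 arrays went from 6.57, 6.34 and 6.43 to 6.03, 6.15 and 5.94, a difference of -0.40 (SE 0.10, adjusted p = 0.00189). At 24 h SESN2 was called lower in 3 lines and CHAC1 in 4, with log2 fold changes no further from 0 than -0.46 (CHAC1 in LY7), and CHAC1 lies near the filter level in 3 lines.

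Enzymes of amino acid synthesis and related metabolism fell at 24 h in 5 of 6 genes on average, after a divided start at 6 h (2 higher, 2 lower). PSAT1 (ENSG00000135069_at), the aminotransferase of serine synthesis, had the largest average fall of all 33 genes. In DHL4 it read 10.35, 10.28 and 10.28 with DMSO and 9.46, 9.60 and 9.68 with R406 at 6 h, a difference of -0.72 (SE 0.058, adjusted p = 3.22e-16). By 24 h the DHL4 arrays read 10.44, 10.46 and 10.55 and 9.02, 9.01 and 9.02, a difference of -1.47 (SE 0.058, adjusted p = 5.64e-30), or 2.77-fold. The groups were apart at both times. DHL6 was opposite at 6 h, where PSAT1 rose from 9.65, 9.76 and 9.99 to 10.27, 10.31 and 10.32, a difference of 0.50 (SE 0.058, adjusted p = 2.07e-10), and yet it fell by 0.81 at 24 h. In DMSO alone PSAT1 in DHL6 dropped by 0.71 between 0 and 6 h, and R406 at 6 h against 0 h gave -0.21 (adjusted p = 0.00192).

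ASNS (ENSG00000070669_at), asparagine synthetase and a standard readout of ATF4, fell in all 5 lines at 24 h. Its DHL4 arrays read 11.97, 11.96 and 12.05 with DMSO and 10.75, 10.74 and 10.68 with R406, a difference of -1.27 (SE 0.054, adjusted p = 1.61e-28), or 2.40-fold. ASNS had log2 fold changes of -0.65 in LY7, -0.58 in U2932, -0.44 in HBL1 and -0.33 in DHL6. At 6 h ASNS was slightly higher in DHL6, 12.77, 12.78 and 12.75 against 12.94, 12.98 and 12.99, a difference of 0.20 (SE 0.054, adjusted p = 0.00175). It was slightly lower in HBL1, 12.32, 12.32 and 12.23 against 12.03, 12.11 and 12.15, a difference of -0.19 (SE 0.054, adjusted p = 0.00643), a call lost without R406 replicate A (adjusted p = 0.0571). The average response of ASNS was -0.064 (SE 0.024) at 6 h and -0.65 (SE 0.024) at 24 h. The 6 h average was not called after cyclic loess normalization (-0.030, adjusted p = 0.29) or with 0 h as the control (-0.016, adjusted p = 0.582).

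CTH (ENSG00000116761_at), which makes cysteine from cystathionine, and PCK2 (ENSG00000100889_at), the mitochondrial PEP carboxykinase, rose at 6 h in DHL4 and DHL6, and PCK2 also in LY7, 0.33 (SE 0.070, adjusted p = 6.84e-05). The PCK2 rise in DHL4, 0.21 (SE 0.070, adjusted p = 0.00781), did not hold without DMSO replicate C (adjusted p = 0.0901), without R406 replicate B (0.14, adjusted p = 0.123) or with the arrays of DHL4 alone (adjusted p = 0.156). CTH in DHL6 at 6 h went from 7.87, 7.98 and 8.03 to 9.13, 9.09 and 9.13, a difference of 1.16 (SE 0.075, adjusted p = 2.07e-19), with no overlap. HBL1 was lower, 7.41, 7.46 and 7.49 against 7.15, 7.19 and 7.28, a difference of -0.25 (SE 0.075, adjusted p = 0.0111), a call lost without DMSO replicate C (adjusted p = 0.0536) or R406 replicate A (0.0588). By 24 h CTH had fallen in all 5 lines, from -0.35 in U2932 to -0.99 in DHL4, where the treated group lay below the filter level. Against 0 h, CTH with R406 in DHL4 at 6 h was lower and not higher, -0.22 (adjusted p = 0.00923), and DMSO alone against 0 h gave -0.84 (SE 0.075, adjusted p = 6.74e-14). The DHL4 control group of CTH at 6 h also lay below the filter level, so the size of that 6 h rise is uncertain. PCK2 at 6 h went from 8.77, 8.66 and 8.66 to 9.28, 9.21 and 9.20 in DHL6, a difference of 0.54 (SE 0.070, adjusted p = 4.25e-09). In U2932 it went from 8.27, 8.13 and 8.08 to 7.84, 7.82 and 7.80, a difference of -0.34 (SE 0.070, adjusted p = 0.000122), and the 2 treated groups lay on opposite sides of their controls.

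PHGDH (ENSG00000092621_at), the first enzyme of serine synthesis, fell most in LY7 at 24 h. Its arrays there read 10.34, 10.50 and 10.38 with DMSO and 9.30, 9.18 and 9.19 with R406, a difference of -1.19 (SE 0.075, adjusted p = 1.58e-20) with no overlap. DHL4 was called higher, 5.39, 5.77 and 5.88 against 6.15, 5.80 and 5.84, a difference of 0.25 (SE 0.075, adjusted p = 0.00263). These DHL4 groups overlapped, both lay around the filter level, and the call was lost without DMSO replicate A (adjusted p = 0.187) or R406 replicate A (0.107). PSPH (ENSG00000146733_at), the phosphatase that completes serine, was the 1 enzyme of the 6 not called on average at 24 h, -0.068 (SE 0.045, adjusted p = 0.163). It was lower in DHL4, 10.20, 10.07 and 10.27 against 9.94, 9.58 and 9.94, a difference of -0.36 (SE 0.10, adjusted p = 0.00136), without overlap. That call was lost after cyclic loess normalization (-0.081, adjusted p = 0.488) and with 0 h as the control (-0.067, adjusted p = 0.558).

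Mitochondrial folate enzymes were lower on average at 24 h in all 3 genes, and MTHFD2 also at 6 h. The SHMT2 average at 6 h, -0.044 (SE 0.017, adjusted p = 0.0212), lost its call after cyclic loess (adjusted p = 0.213), with array medians subtracted (0.0889), with 0 h as the control (0.891), and without DHL6 DMSO replicate A (0.061) or U2932 DMSO replicate B (0.0706). MTHFD2 (ENSG00000065911_at), which oxidises one-carbon units on folate, read 11.43, 11.39 and 11.43 with DMSO and 11.01, 11.14 and 11.21 with R406 in DHL4 at 6 h, a difference of -0.30 (SE 0.063, adjusted p = 6.02e-05). At 24 h its LY7 arrays read 11.48, 11.38 and 11.32 and 10.34, 10.50 and 10.41, a difference of -0.98 (SE 0.063, adjusted p = 3.9e-20). Treated arrays lay below the controls in both comparisons. SHMT2 (ENSG00000182199_at), which takes the one-carbon unit from serine, was lower at 6 h in DHL4, 10.51, 10.54 and 10.52 against 10.36, 10.38 and 10.37, a difference of -0.15 (SE 0.037, adjusted p = 0.000531). It was higher at 6 h in LY7, 10.08, 10.11 and 10.10 against 10.19, 10.18 and 10.24, a difference of 0.10 (SE 0.037, adjusted p = 0.0185), a call lost without DMSO replicate A (adjusted p = 0.0644) or R406 replicate C (0.096). All 5 lines had less SHMT2 at 24 h, between -0.43 in HBL1 and -0.77 in LY7. ALDH1L2 (ENSG00000136010_at), which releases one-carbon units as carbon dioxide, was called in LY7 alone, 7.34, 6.94 and 6.94 against 5.88, 6.08 and 5.88 at 24 h, a difference of -1.13 (SE 0.11, adjusted p = 7.05e-13). LY7 was also the line in which no group mean of ALDH1L2 lay below the filter level.

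**Figure D3:**
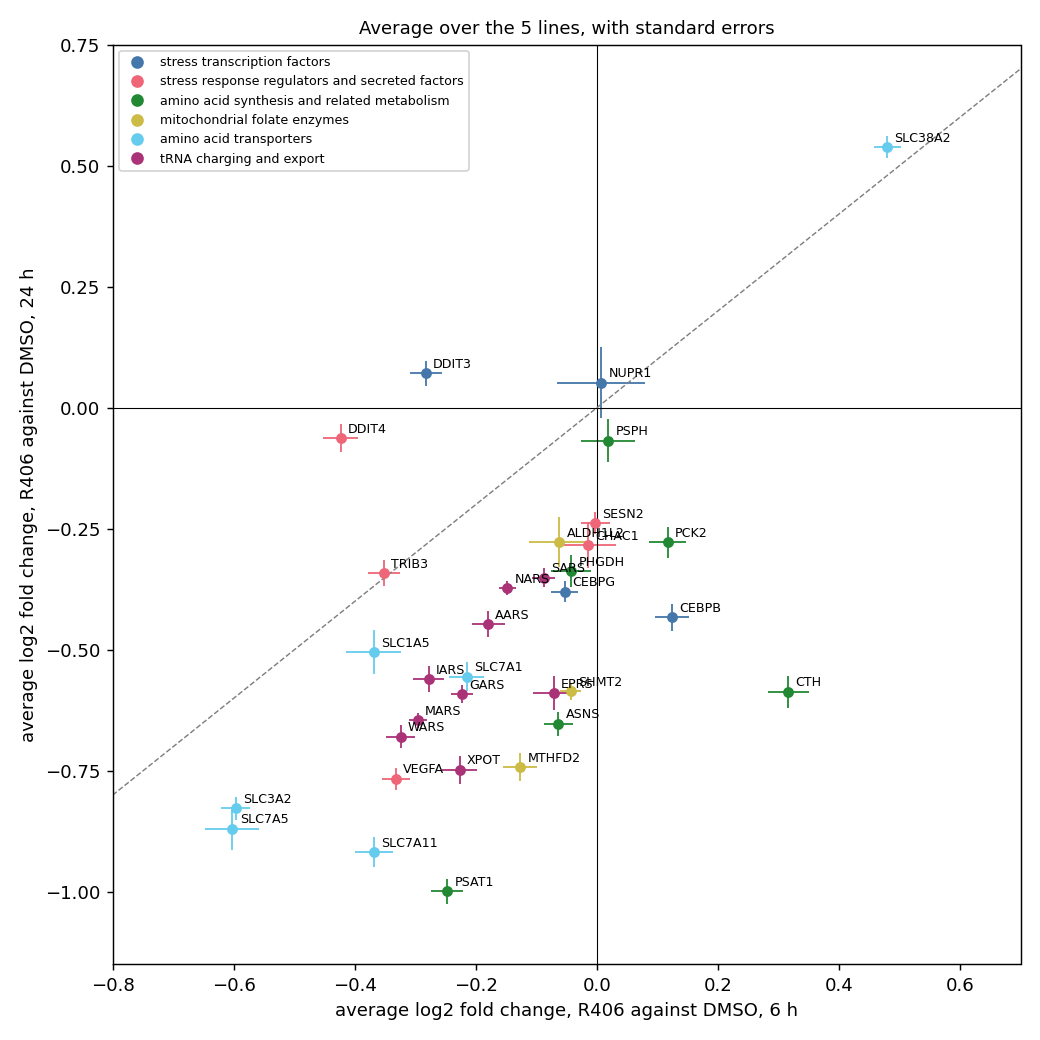
Average log2 fold change over the 5 lines at 6 h (x axis) and 24 h (y axis) for the 33 tested genes, coloured by role, with standard errors as bars. The dashed line marks equal values. Most genes lie below it, with PSAT1 lowest on the y axis, SLC7A5 and SLC3A2 farthest left, and SLC38A2 far to the upper right of all others.

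Amino acid transporters had the largest average falls at 6 h, in SLC3A2 and SLC7A5, though in DHL6 and U2932 a regulator fell most at that time. SLC7A5 (ENSG00000103257_at), the LAT1 exchanger for leucine and other large amino acids, read 11.11, 10.97 and 11.04 with DMSO and 9.07, 9.37 and 9.30 with R406 in DHL4 at 6 h. The difference of -1.80 (SE 0.10, adjusted p = 9.08e-23) amounted to 3.47-fold and left more than 1 log2 unit between the groups. In LY7 it fell by 0.95 at 6 h, while DHL6, HBL1 and U2932 were not called at that time. For DHL6 the difference of -0.066 (SE 0.10) rests on the low DMSO replicate A, and was -0.34 (adjusted p = 0.00012) without it. At 24 h SLC7A5 was lower in all 5 lines, -1.74 in DHL4, -1.31 in LY7, -0.71 in DHL6, -0.34 in HBL1 and -0.25 in U2932, and the U2932 call was lost with any 1 of its 6 arrays left out (adjusted p up to 0.118). SLC3A2 (ENSG00000168003_at), the heavy chain that pairs with both SLC7A5 and SLC7A11, also fell in DHL4, from 8.66, 8.91 and 8.89 to 7.29, 7.17 and 7.24 at 24 h, a difference of -1.58 (SE 0.054, adjusted p = 3.54e-33).

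SLC7A11 (ENSG00000151012_at), the cystine importer, had the largest single fall. In DHL4 at 24 h it read 7.34, 7.38 and 7.18 with DMSO and 5.01, 5.35 and 5.23 with R406, a difference of -2.11 (SE 0.070, adjusted p = 1.06e-33). The treated group lay below the filter level, so the true fall may be larger than this value. At 24 h the other falls were -1.19 in DHL6, -1.37 in LY7 and -0.41 in U2932. HBL1 ran opposite, 5.91, 5.85 and 5.68 against 6.28, 6.32 and 6.30, a difference of 0.48 (SE 0.070, adjusted p = 4.99e-08) from the lowest untreated level of the 5 lines. No group overlapped its control in either line. The HBL1 controls of SLC7A11 at 24 h lay around the filter level, so the size of the HBL1 rise is uncertain. SLC7A1 (ENSG00000139514_at), the arginine and lysine carrier, fell in all 5 lines at 24 h, from -0.26 in U2932 to -0.99 in DHL4. SLC1A5 (ENSG00000105281_at), the ASCT2 glutamine carrier, did so too, most in LY7, -1.10, and its calls in DHL6 and HBL1 each depended on 1 array (without DHL6 R406 replicate C, adjusted p = 0.187, and without HBL1 DMSO replicate C, 0.0568).

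SLC38A2 (ENSG00000134294_at), the sodium-coupled carrier of small neutral amino acids, was the exception among the transporters. In DHL4 it rose at 6 h from 9.54, 9.52 and 9.46 with DMSO to 10.70, 10.72 and 10.80 with R406, a difference of 1.23 (SE 0.051, adjusted p = 1.37e-28) or 2.35-fold. At 24 h DHL4 still stood higher, 9.84, 9.90 and 9.96 against 10.96, 10.94 and 10.91, a difference of 1.04 (SE 0.051, adjusted p = 8.68e-26). All treated arrays lay above all controls at both times. DHL6 rose by 1.16 at 6 h and 0.73 at 24 h, and LY7 by 0.59 and 0.83. In HBL1 at 6 h it fell, from 11.33, 11.25 and 11.23 to 10.75, 10.69 and 10.74, a difference of -0.54 (SE 0.051, adjusted p = 5.47e-13), again without overlap. At 24 h HBL1 was called higher, 0.17 (SE 0.051, adjusted p = 0.00606), a call lost without DMSO replicate B (adjusted p = 0.0875) or R406 replicate B (0.0528) and turned to -0.15 (adjusted p = 0.01) with 0 h as the control. U2932 had -0.041 (SE 0.051, adjusted p = 0.595) at 6 h and -0.077 (SE 0.051, adjusted p = 0.24) at 24 h, with a 95% interval of -0.18 to 0.024 at 24 h. With 0 h as the control the average at 6 h was 0.048 (adjusted p = 0.0613), in place of 0.48. The average of the HBL1 and U2932 responses minus that of the other lines was -1.29 (SE 0.046, adjusted p = 1.33e-30) at 6 h and -0.82 (SE 0.046, adjusted p = 2.46e-22) at 24 h.

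The 9 genes of tRNA charging and export were all lower at 24 h. Their averages lay between -0.35 (SARS) and -0.75 (XPOT), and 7 of the 9 were lower in every line (7.52% of all genes). After cyclic loess normalization GARS, MARS and XPOT still were, while AARS, NARS, WARS and SARS each lost at least 1 line. XPOT (ENSG00000184575_at), which exports tRNA from the nucleus, read 12.10, 12.15 and 12.09 with DMSO and 10.70, 10.81 and 10.79 with R406 in DHL4 at 24 h, a difference of -1.35 (SE 0.064, adjusted p = 1.59e-26) or 2.54-fold. SARS (ENSG00000031698_at), which charges serine tRNA, read 11.12, 11.08 and 11.14 and 10.62, 10.61 and 10.64 in LY7 at 24 h, a difference of -0.49 (SE 0.043, adjusted p = 7.78e-15). WARS (ENSG00000140105_at), for tryptophan, was lowest at 6 h on average and in LY7 went from 8.78, 8.76 and 8.80 to 8.18, 8.23 and 8.25, a difference of -0.56 (SE 0.053, adjusted p = 2.75e-13), which was -0.073 and not called with 0 h as the control (adjusted p = 0.25). None of these groups overlapped. The call of SARS in DHL4 at 24 h, -0.22, is one that cyclic loess normalization turned, to 0.082 (adjusted p = 0.0731).

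In DHL6 at 6 h this group was divided, with 2 of the 9 genes called higher and 2 lower, IARS, -0.19 (SE 0.058, adjusted p = 0.0052), and WARS, -0.19 (SE 0.053, adjusted p = 0.00291). The IARS call was lost after cyclic loess normalization (-0.13, adjusted p = 0.0516). In DHL6 at 6 h the WARS call was lost without DMSO replicate A (-0.13, adjusted p = 0.0767). SARS rose there from 10.96, 10.88 and 10.88 to 11.20, 11.12 and 11.12, a difference of 0.24 (SE 0.043, adjusted p = 6.17e-06), and fell in LY7 from 11.11, 11.24 and 11.24 to 10.94, 10.83 and 10.86, a difference of -0.32 (SE 0.043, adjusted p = 8.19e-09). With 0 h as the control that SARS fall was not called, -0.047 (adjusted p = 0.375). EPRS (ENSG00000136628_at), for glutamate and proline, rose in DHL6 from 10.79, 10.89 and 11.06 to 11.14, 11.21 and 11.24, a difference of 0.28 (SE 0.077, adjusted p = 0.00251). In LY7 it fell from 11.06, 10.97 and 11.10 to 10.74, 10.71 and 10.81, a difference of -0.29 (SE 0.077, adjusted p = 0.00151). Treated and control arrays were apart in all these comparisons, although the EPRS average at 6 h was not called, -0.071 (SE 0.035, adjusted p = 0.0693). The remaining synthetases, GARS (ENSG00000106105_at) for glycine, MARS (ENSG00000166986_at) for methionine, AARS (ENSG00000090861_at) for alanine, NARS (ENSG00000134440_at) for asparagine and IARS (ENSG00000196305_at) for isoleucine, had averages of -0.59, -0.65, -0.45, -0.37 and -0.56 at 24 h. Their DHL4 values at 24 h ran from -0.47 (AARS) to -1.17 (IARS), and their U2932 values from -0.44 (MARS) to -0.11 (IARS, adjusted p = 0.129).

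On average the fall deepened with time, but it did so for fewer genes in HBL1 and for the fewest in U2932. Comparing the average responses at 24 and 6 h directly, 26 of 33 genes were further down at 24 h and 2 were up, beside 36.2% and 22.6% of all genes. Within U2932 alone, 10 genes were further down, 2 were up and 21 were not called, among them all 6 transporters. For HBL1 these counts were 16, 4 and 13. The most genes further down were found in LY7, 28 with 1 up. DHL6 followed with 26 and none up, then DHL4 with 22 and 4 up. In the average, CTH shifted the most, -0.90 (SE 0.048, adjusted p = 1.99e-23), followed by PSAT1, -0.75 (SE 0.037, adjusted p = 1e-24). DDIT3, 0.35 (SE 0.038, adjusted p = 6.87e-12), and DDIT4, 0.36 (SE 0.041, adjusted p = 3.98e-11), were the 2 that moved up on average. By line the DDIT4 shift was 1.70 in DHL4, 0.78 in HBL1, 0.35 in U2932, 0.063 in DHL6 and -1.09 in LY7. SLC38A2, 0.058 (SE 0.032, adjusted p = 0.117), and TRIB3, 0.010 (SE 0.038, adjusted p = 0.828), showed no called difference between the times on average.

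Responses differed between lines for nearly all of the genes, as they did for most of the array. The F-test over the 5 lines called 30 of 33 genes at 6 h (63.3% of all genes) and 32 at 24 h (82.7%). Genes called higher in 1 line and lower in another numbered 12 at 6 h (14% of all genes) and 5 at 24 h (22.8%). At 6 h DHL6 was the highest line for 9 of the 12, HBL1 for DDIT4, DHL4 for SLC38A2 and LY7 for SHMT2. The response averaged over HBL1 and U2932 minus that over DHL4, DHL6 and LY7 was positive for 14 genes and negative for 7 at 6 h (24.1% and 20.2%), and positive for 25 and negative for 3 at 24 h (36.2% and 23.1%). At 24 h the widest gaps were those of SLC7A11, 1.59 (SE 0.063, adjusted p = 7.31e-29), DDIT4, 1.17 (SE 0.059, adjusted p = 1.89e-24), and SLC7A5, 0.97 (SE 0.091, adjusted p = 1.18e-13), and the 3 negative genes were SLC38A2, PCK2, -0.29, and WARS, -0.13. For SLC7A11 the HBL1 controls at 24 h lay around the filter level, and the DHL4 treated group below it. The size of the SLC7A11 gap is therefore uncertain. With 5 lines, the class of a line and the line itself cannot be told apart.

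Array controls for RNA quality moved with treatment as well. The 3-prime minus 5-prime difference of the beta-actin probe sets exceeded that of DMSO in every line with R406 at 24 h, least in HBL1 (0.099) and most in DHL6 (0.45). For 28S ribosomal RNA, its 5-prime probe set was higher by 0.65 to 1.91 in 4 lines and differed by -1.54 in LY7. At 6 h the actin difference with R406 was 0.39 above that with DMSO in LY7. In the other lines that gap ran from -0.0077 in U2932 to 0.10 in HBL1. The 28S probe set at 6 h differed by -1.12 in LY7, and by 0.19 (HBL1) to 0.74 (DHL6) in the other lines. The part of RNA quality in the responses at either time was not tested.

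Vehicle culture alone moved many of these genes, in directions that depended on the line. On average DMSO at 6 h had 9 genes above and 10 below 0 h (22.9% and 18.5% of all genes), and DMSO at 24 h 14 above and 7 below (25.1% and 16.8%). By line at 6 h, LY7 had 19 above and none below (14.3% and 7.91%), and HBL1 19 above and 3 below (15.9% and 7.48%). DHL6 had 1 above and 20 below (14% and 12.8%), U2932 2 above and 12 below (11.4% and 14.9%), and DHL4 7 above and 6 below (16.9% and 15.2%). DHL6 was thus the line with the most genes above DMSO in R406 at 6 h and the line with the most genes below 0 h in DMSO at 6 h, and both comparisons use the same DMSO arrays. SLC7A11 in U2932 differed by -1.04 (SE 0.070, adjusted p = 5.64e-18) in DMSO between 0 and 6 h, and DDIT4 rose by 0.73 (SE 0.029, adjusted p = 1.11e-28) on average by 24 h.

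**Figure D4:**
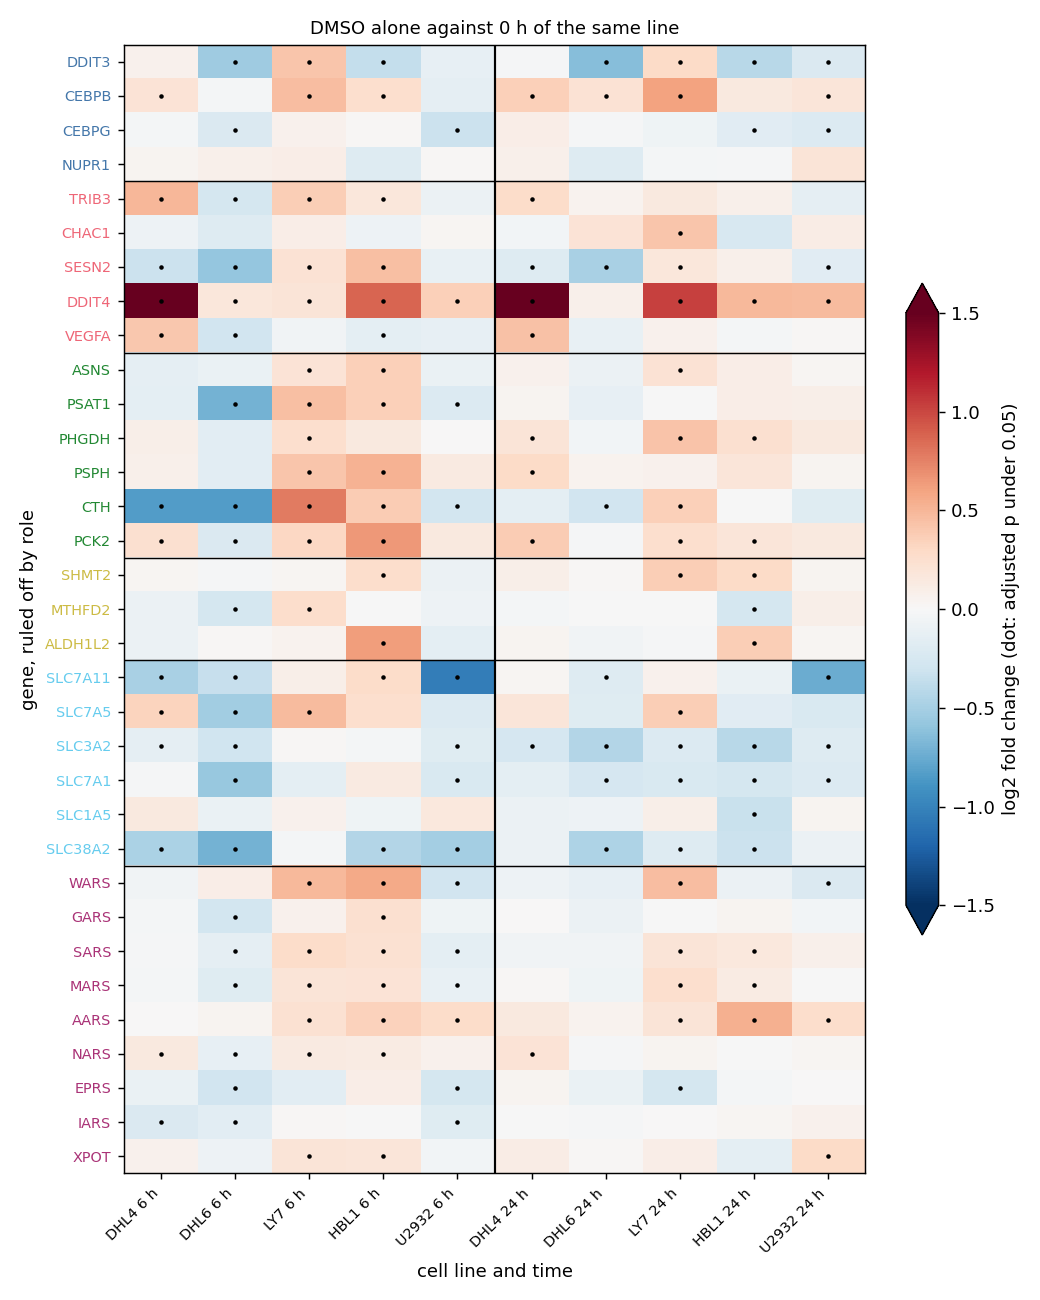
Log2 fold change of DMSO alone at 6 h (left) and 24 h (right) against 0 h of the same line, for the same 33 genes and on the same colour scale as the heat map of R406. At 6 h the LY7 and HBL1 columns are mostly red and the DHL6 column mostly blue, and DDIT4 in DHL4 exceeds the scale at both times.

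With 0 h as the control in place of DMSO at the same time, the counts of genes lower at 24 h moved little and those at 6 h moved more. At 24 h 17 genes were lower in all 5 lines, 15 of them among the 18. At 6 h DHL6 had 6 genes higher and 17 lower, HBL1 13 higher and 5 lower, LY7 10 higher, and U2932 23 lower. Other calls printed above were also lost or turned against 0 h. The rise of ASNS in DHL6 at 6 h (0.10, adjusted p = 0.12) and the fall of CHAC1 in LY7 at 24 h (-0.042, adjusted p = 0.745) were among those not called. So were, at 6 h, EPRS in DHL6 (-0.0070, adjusted p = 0.954) and CTH in HBL1 (0.13, adjusted p = 0.201). At 24 h DDIT3 in LY7 (0.12, adjusted p = 0.0796) and CEBPB in DHL4 (0.030, adjusted p = 0.673) were not called either. Turned to called rises at 6 h were CEBPB in LY7, 0.23 (adjusted p = 0.00116), and ASNS in HBL1, 0.17 (adjusted p = 0.0122).

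Untreated levels at 0 h differed between lines for 32 of the 33 tested genes (89.5% of all genes), all but NUPR1. PHGDH had the widest range, from 5.48 ± 0.11 (SD, n = 3) in DHL4 to 10.48 ± 0.069 in DHL6, a difference of 5.00 in log2 values that may understate the gap, since the DHL4 level lay below the filter. HBL1, LY7 and U2932 lay between, at 9.65 ± 0.024, 9.98 ± 0.0083 and 9.95 ± 0.0031. DDIT4 was low in HBL1, 6.23 ± 0.19, and between 9.49 ± 0.033 and 9.87 ± 0.0083 in the other lines. SLC7A11 was highest in U2932, 8.76 ± 0.081, and lowest in HBL1, 5.91 ± 0.049. DHL4 held the least CTH, 6.70 ± 0.11, PCK2, 6.54 ± 0.14, and SLC38A2, 9.98 ± 0.0034, and the most XPOT, 12.00 ± 0.022. Among the flattest genes, IARS and EPRS spanned 0.24 and 0.25.

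**Figure D5:**
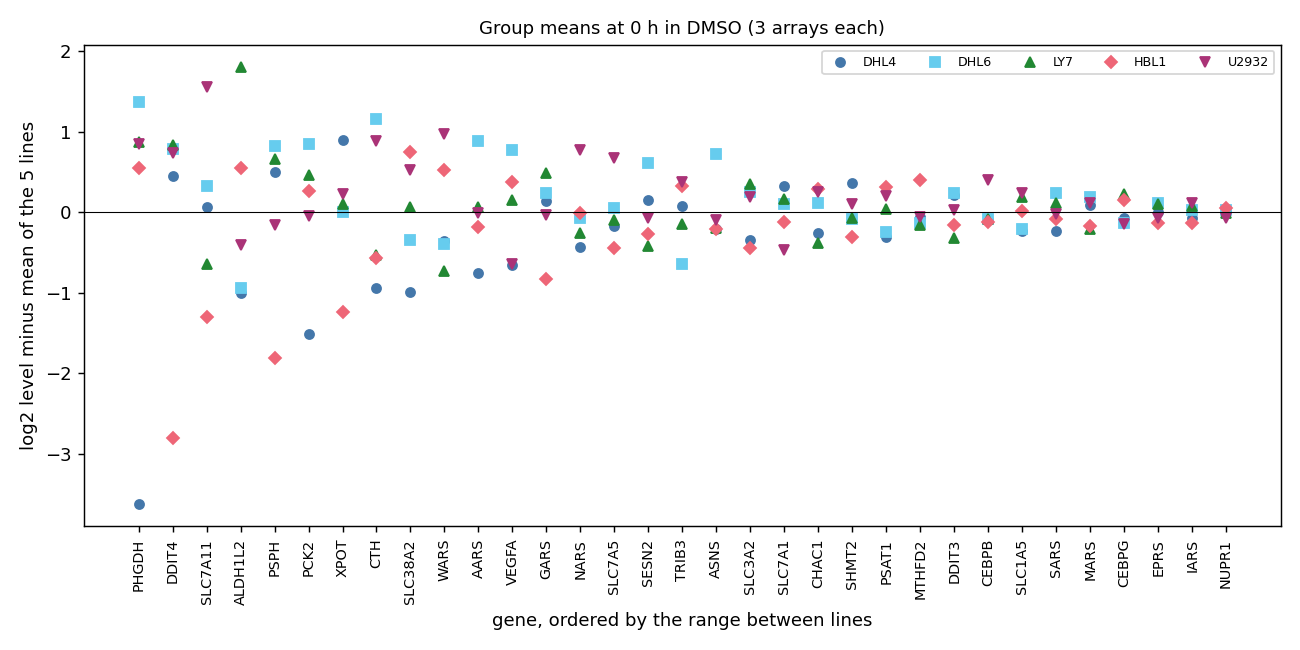
Group means at 0 h in DMSO, each minus the mean of the 5 lines, for the 33 tested genes ordered by the range between lines (log2 units, 3 arrays a mean). PHGDH in DHL4 and DDIT4 in HBL1 lie far below the other lines, and the genes at the right, such as IARS and NUPR1, differ little.

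ATF3 and STC2 were fitted without the filter. ATF3 (ENSG00000162772_at), a stress factor that follows ATF4, had group means between 5.15 and 5.84 and was lower at 24 h in HBL1, -0.45 (SE 0.078, adjusted p = 4.52e-06), and LY7, -0.32 (adjusted p = 0.000496). STC2 (ENSG00000113739_at), a secreted stanniocalcin, had group means between 4.57 and 5.64 and was lower at 24 h in HBL1, -0.46 (SE 0.10, adjusted p = 0.000228). Neither gene had a group mean above the median of all values on the arrays. Among the tested genes, 7 had at least 1 group mean at or below the filter level, namely CHAC1, PHGDH, SLC7A11, CTH, ALDH1L2, VEGFA and NUPR1.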

How the data were processed

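RNA of 5 lymphoma cell lines was hybridised to 75 Affymetrix arrays, 3 for each of 25 groups of line, treatment and time. The deposited values are log2 expression per gene row, summarised with RMA per the submitters' processing notes, and no depth applies to arrays. Scanner files were not used here, so background correction could not be varied. The 62 rows of array controls were set aside. Genes whose highest group mean exceeded 5.89, the median of all values, were kept (11745 of 19536). Limma 3.58.1 in R 4.3.3 (data.table, version 1.17.8) fitted 25 group means, with 50 residual degrees of freedom, and p-values were Benjamini-Hochberg adjusted over all 11745 genes within each comparison. F-tests compared the lines. The fit was tested on simulated data.

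The members and lists were chosen with earlier results of these data known. Genes shown with every array were DDIT3, the genes with the highest and the lowest average log2 fold change in each role at 6 and 24 h, in the line where each differed most, and genes called in opposite directions in different lines. ASNS and SLC3A2 in DHL4 at 24 h were added after their values were seen. Lists of other pathway genes and of B-cell markers were not analysed here, since no table used here pairs their names with the identifiers.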

Additional observations from a re-analysis of the deposited data

Results flagged for a closer look

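Responses to R406 differed among the 5 lines, by limma's moderated F-test, for 30 of the 33 tested genes at 6 h and for 32 at 24 h, beside 63.3% and 82.7% of all genes. The response of HBL1 and U2932 minus that of DHL4, DHL6 and LY7 was called higher for 14 genes and lower for 7 at 6 h (24.1% and 20.2% of all genes), and higher for 25 and lower for 3 at 24 h (36.2% and 23.1%). Between the times, the average response was higher at 24 h for 2 genes and lower for 26 (22.6% and 36.2% of all genes).

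Genes called higher in 1 line and lower in another were set apart by the gap between their highest and lowest line, on the log2 scale. At 6 h the gap was 1.90 for DDIT4, 1.78 for SLC38A2, 1.41 for CTH, 1.22 for PSAT1, 1.01 for CHAC1, 0.94 for CEBPB and 0.88 for PCK2. Smaller gaps at 6 h were 0.57 for EPRS, 0.56 for SARS, 0.56 for SESN2, 0.39 for ASNS and 0.25 for SHMT2. At 24 h the gap was 2.59 for SLC7A11, 2.21 for DDIT4, 1.44 for PHGDH, 1.26 for CEBPB and 0.70 for DDIT3. The F-test over the lines called each of these genes, as it did 63.3% of all genes at 6 h and 82.7% at 24 h. It adds no support, because the genes were picked by opposite calls from the same fit. It also does not test the gap itself. Some of the opposite calls were lost without 1 array, such as PHGDH in DHL4 at 24 h and SHMT2 in LY7 at 6 h.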

How the results depend on the processing

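The average counts at 24 h (29 lower, 2 higher) kept within 1.5 times under every alternative, except that the count higher was 1 when array medians were subtracted. The genes behind a count could change, as with 0 h as the control the average was -0.13 for DDIT3 and 0.66 for DDIT4. Of 396 single gene values, 365 kept direction and call after cyclic loess, 383 with array medians subtracted, 391 without the filter, 394 with a trended robust prior, 374 with array weights and 318 of 330 with the arrays of 1 line alone. The replicate letters were not treated as pairs, as 0 of 10 comparisons had every correlation between arrays of the same letter over 0.1. Of 30 single correlations 6 were over 0.1, and the rule could not detect weak pairing. A fit with the letter as a replicate block kept 2 higher and 29 lower on average at 24 h and 391 of the 396 values. Leaving out 1 array kept 3843 of 3960 values, with 95 calls lost, 22 gained and none reversed.

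DMSO at 0 h as the control, which adds culture time to the comparison, moved most. It gave 6 higher and 17 lower in DHL6, 13 and 5 in HBL1, 10 higher in LY7 and 23 lower in U2932 at 6 h, 5 higher in DHL4, 2 in LY7 and 1 in U2932 at 24 h, and 5 lower in the contrast of line sets at 24 h. It turned 45 values: at 6 h in U2932 AARS 0.033, CEBPG -0.31, DDIT4 0.13 and IARS -0.16, in HBL1 ALDH1L2 0.35, ASNS 0.17, CTH 0.13, DDIT3 -0.24, GARS 0.068, MARS 0.079, NARS 0.10, PCK2 0.49, PSAT1 0.26, SARS 0.19, SESN2 0.33, SHMT2 0.16 and WARS 0.082, in LY7 ASNS 0.17, CEBPB 0.23, DDIT3 0.19, MTHFD2 0.022, PHGDH 0.030, PSPH 0.33 and SESN2 0.14, in DHL6 CEBPG -0.15, EPRS -0.0070, GARS -0.20, MTHFD2 -0.23, PSAT1 -0.21, SESN2 -0.20 and SLC7A1 -0.48, in DHL4 CTH -0.22 and DDIT4 0.034, and in the average DDIT4 0.21, and at 24 h in HBL1 AARS 0.37, ALDH1L2 0.29 and SLC38A2 -0.15, in U2932 AARS 0.068, in DHL4 CEBPB 0.030 and PCK2 0.33, in LY7 DDIT3 0.12, DDIT4 0.31 and PCK2 0.043, and in the average DDIT3 -0.13 and DDIT4 0.66. Cyclic loess turned SARS in DHL4 at 24 h to 0.082 and the DDIT4 average at 24 h to 0.077. It also gave 3 higher in U2932 at 24 h, 1 lower in LY7 with DMSO at 6 h, and 5 lower in the contrast of line sets at 24 h. Array weights gave 17 lower in HBL1 at 6 h, 14 higher for the DMSO average at 6 h, 1 lower in LY7 with DMSO at 6 h and 1 higher in U2932 at 24 h. Without the filter DHL6 with DMSO at 6 h had 0 higher (1 in the chosen fit), and subtracted medians gave 1 higher in DHL6 at 24 h. Genes lower in all 5 lines at 6 h numbered 2 with cyclic loess, the stricter filter, array weights or 0 h as the control. The cause of these shifts was not tested.

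With 1 array left out, the counts ranged from 0 to 1 higher in DHL6 with DMSO at 6 h, 1 to 3 higher in DHL4 at 24 h (1 without R406 replicate A), 1 to 3 higher in DHL6 at 24 h (1 without R406 replicate B), 1 to 2 higher and 6 to 11 lower in HBL1 at 6 h, 0 to 1 higher in U2932 at 24 h, 1 to 2 lower in all 5 lines at 6 h and 16 to 19 at 24 h. With 3 arrays a group, the smallest difference that passes depends on the spread of the gene. At 6 h SHMT2 passed at 0.10 in LY7 (adjusted p = 0.0185), and ALDH1L2 at -0.27 in HBL1 did not (adjusted p = 0.0817). Genes near the filter level have little signal over background.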
